A study of Mus musculus with 6 samples.

Results

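The class I antigen presentation genes H2-K1, H2-D1, H2-Q7, B2m, Tap1, Tap2, Tapbp, Nlrc5, Psmb8 and Psmb9 were examined in lymphocytes of the mouse mammary gland late in pregnancy. These 10 genes were chosen by symbol out of 55450 genes measured, and all 10 passed the filter on low counts, as did 13171 genes in all. Bulk RNA sequencing had been done on 6 libraries, each of cells that had been sorted out of the mammary glands of mice at embryonic day 18.5 of pregnancy. A first group of 3 libraries held CD8 beta+ T cells, and the other 3 held double negative (DN) NK1.1+ cells, for which the labels use both the term lymphocytes and the term T cells. No genotype, strain, age or treatment is given for either group, the markers that the DN cells lack are not named, and the labels do not say whether animals were pooled. Both groups share the tissue, the stage of pregnancy and the library kit.

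MHC class I molecules display peptides from inside the cell to CD8+ T cells, and their level is also read by inhibitory receptors of natural killer (NK) cells. The proteasome cuts proteins into peptides, and cells exposed to interferon exchange its constitutive catalytic subunits for the immunoproteasome subunits that Psmb8, Psmb9 and Psmb10 encode. The transporter made of Tap1 and Tap2 carries peptides into the endoplasmic reticulum, where tapasin, the product of Tapbp, bridges it to newly made class I molecules. A class I molecule is a heavy chain, such as those that H2-K1, H2-D1 and H2-Q7 encode, held by the light chain beta-2 microglobulin, which B2m encodes. Nlrc5 encodes the transactivator of the class I genes, which works through factors bound to the X and Y boxes of their promoters. Lymphocytes are known for high class I levels.

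Total counts lay between 7961360 and 14367299 per library. Values are in CPM, which expresses counts relative to the size of the library, given for replicates 1, 2 and 3 of each group with the CD8 beta+ libraries first, and then as mean ± SD (n = 3 per group). Log2 fold changes are DN NK1.1+ over CD8 beta+ with their standard error (SE), and adjusted p-values come from the quasi-likelihood test in edgeR after Benjamini-Hochberg adjustment over the 13171 genes. A gene was called at an adjusted p under 0.05. As a check of the labels, Cd8b1 was at 949 ± 57.8 CPM in the CD8 beta+ group and 2.57 ± 1.58 CPM in the DN NK1.1+ group, and Klrb1c, which encodes NK1.1, at 37.1 ± 5.68 and 639 ± 20.8 CPM. Summed over 7 T cell genes, CD8 beta+ libraries held 3009 to 3182 CPM and DN NK1.1+ libraries 1580.0 to 1745 CPM, so T cell transcripts were present in both. The genes differed widely: Cd3g (728 and 665 CPM) was not called, and the other 6 were called lower (5.99% over all tested genes). Among these 6, Cd3e was at 765 and 522 CPM, Bcl11b at 289 and 53.3 CPM and Cd5 at 159 and 10.1 CPM. Summed over 6 NK genes, the ranges were 306 to 355 and 2393 to 2630.0 CPM.

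The upstream sequences of the heavy chain and B2m genes are shown first because these are the classical targets of NLRC5, and they can be set beside the levels that follow. Of the 10 genes, 8 had an entry in the RefSeq promoter table (GRCm38.p6), and Tap2 and Nlrc5 did not. Each sequence is the 200 bases before the RefSeq start, read 5′ to 3′ on the gene's own strand. Capitals mark 4 kinds of motif on either strand: the NF-kappa-B consensus, the core of the interferon-stimulated response element (GAAANNGAA or GAANNGAAA), the core of the X2 box (TGACG) and the Y box (CCAAT). The H2-K1 window is chr17:34000348-34000547 on the minus strand, that of H2-D1 is chr17:35262894-35263093 on the plus strand, that of H2-Q7 is chr17:35438955-35439154 on the plus strand, and that of B2m is chr2:122147487-122147686 on the plus strand.
H2-K1: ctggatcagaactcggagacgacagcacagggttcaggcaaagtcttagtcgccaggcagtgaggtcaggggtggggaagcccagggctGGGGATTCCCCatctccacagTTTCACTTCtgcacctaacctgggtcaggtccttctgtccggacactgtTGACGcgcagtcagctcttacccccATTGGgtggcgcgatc
H2-D1: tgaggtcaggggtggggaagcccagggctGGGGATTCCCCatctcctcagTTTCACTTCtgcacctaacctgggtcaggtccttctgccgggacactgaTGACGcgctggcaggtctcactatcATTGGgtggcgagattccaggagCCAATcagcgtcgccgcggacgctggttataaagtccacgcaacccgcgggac
H2-Q7: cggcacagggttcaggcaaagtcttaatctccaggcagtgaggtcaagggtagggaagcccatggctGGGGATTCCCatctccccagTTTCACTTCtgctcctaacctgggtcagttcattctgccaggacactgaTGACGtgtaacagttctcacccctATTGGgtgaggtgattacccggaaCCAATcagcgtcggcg
B2m: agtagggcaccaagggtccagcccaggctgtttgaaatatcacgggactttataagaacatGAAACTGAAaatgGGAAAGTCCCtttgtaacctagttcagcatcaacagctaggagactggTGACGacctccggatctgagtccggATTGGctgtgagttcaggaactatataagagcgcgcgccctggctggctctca

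The windows of H2-K1, H2-D1, H2-Q7 and B2m each held all 4 kinds of motif. No motif overlapped another of a different kind, and in H2-K1 and H2-D1 a pair of NF-kappa-B matches overlapped each other. In the 3 heavy chain genes the order toward the start was NF-kappa-B, response element, X2 and Y, whereas in B2m the response element came first. The X2 core began 41 bases before the start in H2-K1, 101 in H2-D1, 64 in H2-Q7 and 78 in B2m. Over 32505 windows of this length in the table, 6.09% held the NF-kappa-B consensus, 9.97% the response element core, 15.7% the X2 core and 29.3% the Y box. All 4 were present in 12 windows (0.0369%), which belonged to 11 genes, among them the 4 above and the class I genes H2-Q4 and H2-M3. The motifs and the window were chosen after the sequences had been read, and a match is a run of letters, not a measured binding site.

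Tap1 and Psmb9 lie head to head on chromosome 17, so that a single interval separates their RefSeq starts. It is chr17:34187331-34187555, 225 bases, given here on the plus strand toward Tap1 because both genes were called lower in DN NK1.1+ libraries.
Tap1 and Psmb9: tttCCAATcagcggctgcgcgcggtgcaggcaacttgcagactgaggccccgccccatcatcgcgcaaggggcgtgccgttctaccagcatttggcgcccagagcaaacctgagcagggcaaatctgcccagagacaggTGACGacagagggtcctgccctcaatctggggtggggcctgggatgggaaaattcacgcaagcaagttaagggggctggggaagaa
This interval held a Y box and an X2 core and no match to the other 2 motifs. The 200 bases before the RefSeq start of Tapbp held a Y box alone, and those before that of Psmb8 held none of the 4 motifs. Only the first RefSeq entry of each gene was used. The windows before H2-D1, Psmb9, Tapbp and Psmb8 lie inside the GENCODE M21 spans of these genes, which are given below. The bases before their GENCODE starts were not searched.

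Of the 10 genes, 5 were called lower in DN NK1.1+ libraries: Nlrc5, Tap1, Psmb9, H2-Q7 and Psmb8. Over all tested genes 13.8% were called, 5.99% lower and 7.84% higher. None of the 10 was called higher by edgeR, none had a positive change at an unadjusted p under 0.05, and DESeq2 and limma-voom called 0 higher and 5 lower. For these 5 genes every DN NK1.1+ library lay below every CD8 beta+ library, and for the other 5 the groups overlapped, while groups were apart for 30.6% of all tested genes. The log2 fold change was negative for 8 of the 10 genes, with a median of −0.26 (all tested genes −0.0033). The count of 5 fell to 2 without CD8 beta+ replicate 1 or DN NK1.1+ replicate 2 and to 3 without DN NK1.1+ replicate 1. In bulk samples, fewer cells carrying a transcript and less transcript per cell cannot be told apart.

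**Figure D1:**
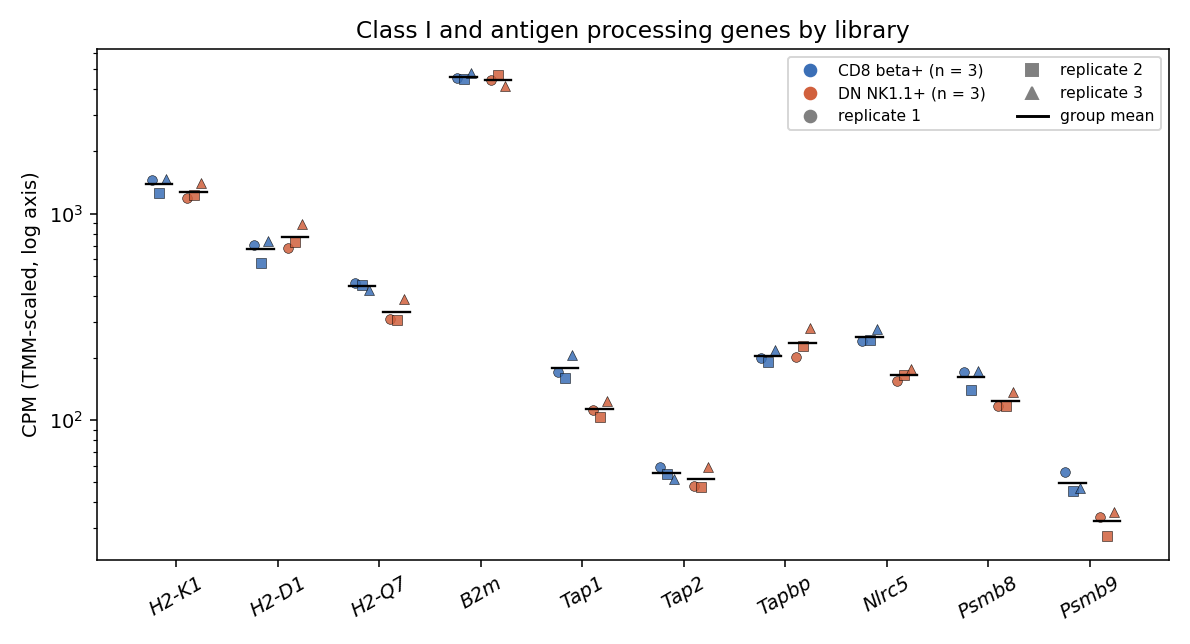
Level of each of the 10 class I pathway genes in each library, in CPM on a log axis. Points are libraries and bars are group means (n = 3 per group). The groups do not overlap for Nlrc5, Tap1, Psmb9, H2-Q7 and Psmb8, and they overlap for the other 5 genes.

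Nlrc5, the transactivator, was 1.53-fold lower in DN NK1.1+ libraries. The gene lies on chromosome 8 (94434356 to 94527272, plus strand, in mm10 with GENCODE M21, as for the other genes). It was at 241, 246 and 275 CPM in CD8 beta+ libraries and at 155, 166 and 176 CPM in DN NK1.1+ libraries. The highest DN NK1.1+ library lay well under the lowest CD8 beta+ library. The means were 254 ± 18.7 and 166 ± 10.4 CPM, with a log2 fold change of −0.62 (SE 0.096, adjusted p = 0.000384). An antisense gene, 9330175E14Rik, overlaps 78 exonic bases of Nlrc5, and the use of strand in counting is not known.

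The classical heavy chains were not called, whereas H2-Q7, a Qa-2 heavy chain, was called lower. H2-K1 (chromosome 17, 33996017 to 34000347, minus strand) was at 1447, 1262 and 1474 CPM in CD8 beta+ libraries and 1185, 1224 and 1411 CPM in DN NK1.1+ libraries. These ranges overlapped, and the log2 fold change of −0.13 (SE 0.11, adjusted p = 0.508) had a 95% interval of −0.36 to 0.09. H2-D1 (chromosome 17, 35262730 to 35267499, plus strand) was at 701, 579 and 737 CPM and at 683, 727 and 889 CPM. Here too the groups overlapped, and the log2 fold change of 0.19 (SE 0.12, adjusted p = 0.372) had an interval of −0.07 to 0.45. Both intervals lay above the log2 fold change of −0.62 for Nlrc5, whose own interval was −0.82 to −0.41. Any relation between the level of Nlrc5 and that of these genes was not tested.

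H2-Q7 (chromosome 17, 35439155 to 35443773, plus strand) was at 462, 449 and 425 CPM in CD8 beta+ libraries and at 308, 305 and 384 CPM in DN NK1.1+ libraries. All 3 DN NK1.1+ libraries were lower, with replicate 3 closest to the CD8 beta+ group. The means were 446 ± 18.7 and 332 ± 44.6 CPM, 1.34-fold lower in DN NK1.1+ libraries, with a log2 fold change of −0.42 (SE 0.10, adjusted p = 0.0126). The call was lost without CD8 beta+ replicate 1 or 2 or DN NK1.1+ replicate 1 or 2 (log2 fold changes −0.42 to −0.37, adjusted p-values 0.0566 to 0.0815). H2-Q7 is uncertain for a further reason: its transcript is 94.0% identical to that of the neighbouring H2-Q6 over 1039 aligned positions, and 40.2% of its 50-base stretches also occur in transcripts of other genes. H2-Q6 was at 299 ± 11.99 and 301 ± 14.3 CPM, with a log2 fold change of 0.01 (SE 0.090, adjusted p = 0.968), and the log2 ratio of H2-Q7 to H2-Q6 was 0.57 ± 0.08 and 0.14 ± 0.12. With the counts of both genes summed, an alternative added after the data had been seen, the log2 fold change was −0.23 (adjusted p = 0.141) and the call was lost. The summed levels were 754, 762 and 718 CPM in CD8 beta+ libraries and 597, 602 and 701 CPM in DN NK1.1+ libraries, still without overlap.

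Beside similar sums of the classical heavy chains, H2-D1 stood higher relative to H2-K1 in every DN NK1.1+ library. H2-K1 and H2-D1 together came to 2067 ± 198 CPM in CD8 beta+ libraries and 2039.5 ± 229 CPM in DN NK1.1+ libraries. The log2 ratio of H2-D1 to H2-K1 was −1.045, −1.122 and −0.9995 in CD8 beta+ libraries and −0.80, −0.75 and −0.67 in DN NK1.1+ libraries, so that all 3 DN NK1.1+ libraries were shifted toward H2-D1. This ratio was chosen after its values had been seen and was not tested, and the transcripts are 88.2% identical over 1510 aligned positions. The 8 H2-Q genes summed to 942 ± 19.1 and 820.1 ± 64.5 CPM, and the 20 H2-T and H2-M genes to 289 ± 10.3 and 237 ± 23.1 CPM. On both of these sums every DN NK1.1+ library lay below every CD8 beta+ library, and neither sum was tested. Within the H2-Q sum, H2-Q7 (446 and 332 CPM) and H2-Q10 (17.5 and 7.03 CPM) had lower means in DN NK1.1+ libraries. H2-Q6 (299 and 301 CPM) and H2-Q4 (156.5 and 156.7 CPM) had similar means, and H2-Q2 was low in both groups (0.636 and 1.23 CPM). Over all 31 genes of the H2-K, D, Q, T and M series the sums were 3301 ± 189 and 3101 ± 315 CPM, which overlapped. These 8, 20 and 31 genes include pseudogenes.

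B2m, which encodes the light chain of class I molecules, did not pass the test. The gene lies on chromosome 2 (122147686 to 122153083, plus strand). Levels were 4519.6, 4475 and 4806 CPM in CD8 beta+ libraries and 4425, 4673 and 4119 CPM in DN NK1.1+ libraries. The groups overlapped, and the log2 fold change was −0.06 (SE 0.10, adjusted p = 0.784) with a 95% interval of −0.28 to 0.16. Unlike all of the other genes, B2m was lowest of its group in DN NK1.1+ replicate 3.

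The peptide transporter subunits differed from each other: Tap1 was 1.58-fold lower in DN NK1.1+ libraries, and Tap2 was not called. Tap1 (chromosome 17, 34187553 to 34197225, plus strand) was at 172, 159.9 and 207 CPM in CD8 beta+ libraries and at 112, 104 and 124 CPM in DN NK1.1+ libraries. Every DN NK1.1+ library was below every CD8 beta+ library. The means were 179 ± 24.3 and 113 ± 10.1 CPM, and the log2 fold change was −0.66 (SE 0.11, adjusted p = 0.000837), the largest among the 10 genes. Tap2 (chromosome 17, 34203527 to 34216321, plus strand) was at 59.4, 55.1 and 51.9 CPM and at 48.0, 47.5 and 59.7 CPM. DN NK1.1+ replicate 3 was the highest of the 6 libraries, and the log2 fold change of −0.10 (SE 0.13, adjusted p = 0.722) had an interval of −0.38 to 0.18.

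The log2 ratio of Tap1 to Tap2 was 1.67 ± 0.26 in the CD8 beta+ group and 1.12 ± 0.08 in the DN NK1.1+ group, without overlap. It was chosen after its values had been seen and was not tested. Both subunits share under 1% of their 50-base stretches with other genes' transcripts (0.861% for Tap1 and 0.737% for Tap2). Exons of Tap1 and Psmb9 overlap on opposite strands over 212 bases, so that reads from there cannot be told apart if strand was not used.

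Tapbp, which encodes the tapasin bridge, was not called, with a positive change. The gene lies on chromosome 17 (33915899 to 33929292, plus strand) and was at 199.6, 192 and 219 CPM in CD8 beta+ libraries and 203, 229.5 and 278 CPM in DN NK1.1+ libraries. The groups overlapped, and the log2 fold change was 0.22 (SE 0.11, adjusted p = 0.260) with an interval of −0.02 to 0.47. Set against Tap1, the log2 ratio of Tapbp to Tap1 was 0.19 ± 0.10 in CD8 beta+ libraries and 1.05 ± 0.17 in DN NK1.1+ libraries. The 2 groups were apart on that ratio, which was chosen after its values had been seen and was not tested.

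Both immunoproteasome genes on chromosome 17 were called lower in DN NK1.1+ libraries, Psmb9 by 1.52-fold and Psmb8 by 1.30-fold. Psmb9 (34181987 to 34187764, minus strand) was at 55.9, 45.5 and 47.1 CPM in CD8 beta+ libraries and at 33.9, 27.4 and 36.1 CPM in DN NK1.1+ libraries, with a gap between the groups. The means were 49.5 ± 5.60 and 32.5 ± 4.52 CPM, and the log2 fold change was −0.61 (SE 0.15, adjusted p = 0.0141). Psmb8 (34197721 to 34201454, plus strand) was at 171, 139.9 and 173 CPM and at 117, 118 and 137 CPM. Its highest DN NK1.1+ library, replicate 3, came close to its lowest CD8 beta+ library, replicate 2. The means were 161 ± 18.4 and 124 ± 11.3 CPM, and the log2 fold change was −0.38 (SE 0.11, adjusted p = 0.0318).

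Both calls were lost in some of the fits that left out a library. For Psmb9 the call was lost without CD8 beta+ replicate 1 (log2 fold change −0.52, adjusted p = 0.0875) or DN NK1.1+ replicate 2 (−0.50, adjusted p = 0.0714). For Psmb8 it was lost without CD8 beta+ replicate 1 or 3 or DN NK1.1+ replicate 1 or 2 (−0.35 to −0.33, adjusted p-values 0.0839 to 0.137). It was also lost when libraries were scaled by total count alone (−0.33, adjusted p = 0.0833).

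**Figure D2:**
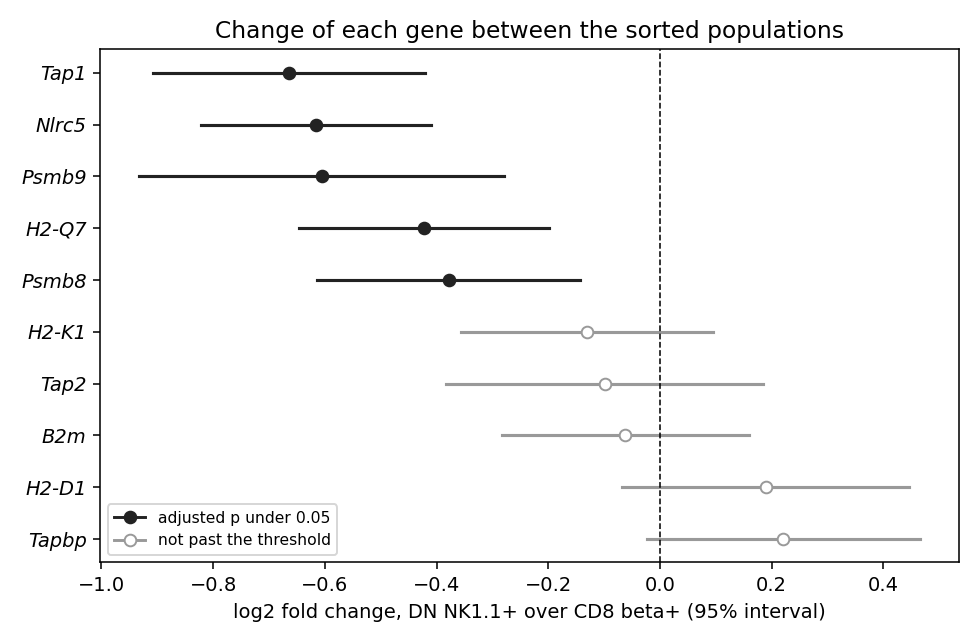
Log2 fold change of each of the 10 genes, DN NK1.1+ over CD8 beta+, with its 95% interval from the quasi-likelihood fit. Filled and open points separate genes called at an adjusted p under 0.05 from those not called. Tap1 at −0.66 and Nlrc5 at −0.62 lie farthest below 0, and Tapbp at 0.22 lies farthest above it.

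The third induced subunit, Psmb10, was at 52.5, 45.3 and 53.5 CPM in CD8 beta+ libraries and at 47.7, 38.8 and 70.6 CPM in DN NK1.1+ libraries. These overlapped, and the log2 fold change of 0.06 (SE 0.19, adjusted p = 0.903) changed sign without CD8 beta+ replicate 2 (−0.023) or DN NK1.1+ replicate 3 (−0.22). Nor was any of the 5 genes of the list that holds Psmb10 and the proteasome activator called by edgeR (at an unadjusted p under 0.05, 0 higher and 1 lower; DESeq2 and limma-voom, 0 and 0). The constitutive counterparts were not called either, with log2 fold changes of −0.13 for Psmb5, 0.31 for Psmb6 and 0.06 for Psmb7. The sign of Psmb5 turned without DN NK1.1+ replicate 2 (0.034) and that of Psmb7 without CD8 beta+ replicate 1 (−0.039). Exons of Psmb7 and of Nek6, on the opposite strand, overlap over 405 bases, and the use of strand in counting is not known. Counts of Nek6 were 129, 167 and 215 in CD8 beta+ libraries and 495, 456 and 563 in DN NK1.1+ libraries. None of the 11 structural core genes was called by edgeR in either direction (at an unadjusted p under 0.05, 0 higher and 1 lower; DESeq2 and limma-voom, 0 and 0). Over all tested genes 13.8% were called in either direction, and lists this short can hold 0 calls at that share.

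Each induced subunit was then set against the constitutive subunit that it replaces, as log2((CPM + 1)/(CPM + 1)). Psmb9 over Psmb6 was 1.01, 0.98 and 0.77 in CD8 beta+ libraries and 0.34, −0.27 and 0.03 in DN NK1.1+ libraries, all lower. The difference of −0.89 had an exact two-sided permutation p of 0.10, the smallest that 3 against 3 libraries can give, and 0.30 after Benjamini-Hochberg adjustment over the 3 ratios. Psmb8 over Psmb5 was 2.89 ± 0.27 and 2.66 ± 0.29, a difference of −0.23 with overlapping groups (exact permutation p = 0.30, adjusted 0.45). Psmb10 over Psmb7 was 0.14 ± 0.25 and 0.09 ± 0.48 (exact permutation p = 0.90, adjusted 0.90). Its difference of −0.06 changed sign without CD8 beta+ replicate 1 (0.07) or DN NK1.1+ replicate 2 (0.18). Within the induced subunits, Psmb8 over Psmb10 was 1.65 ± 0.04 and 1.27 ± 0.32, a ratio chosen after its values had been seen and not tested. Psmb5 counts are uncertain, since 57.1% of its 50-base stretches occur in transcripts of other genes. Psmb7 counts may include reads from the overlapping Nek6 if strand was not used.

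**Figure D3:**
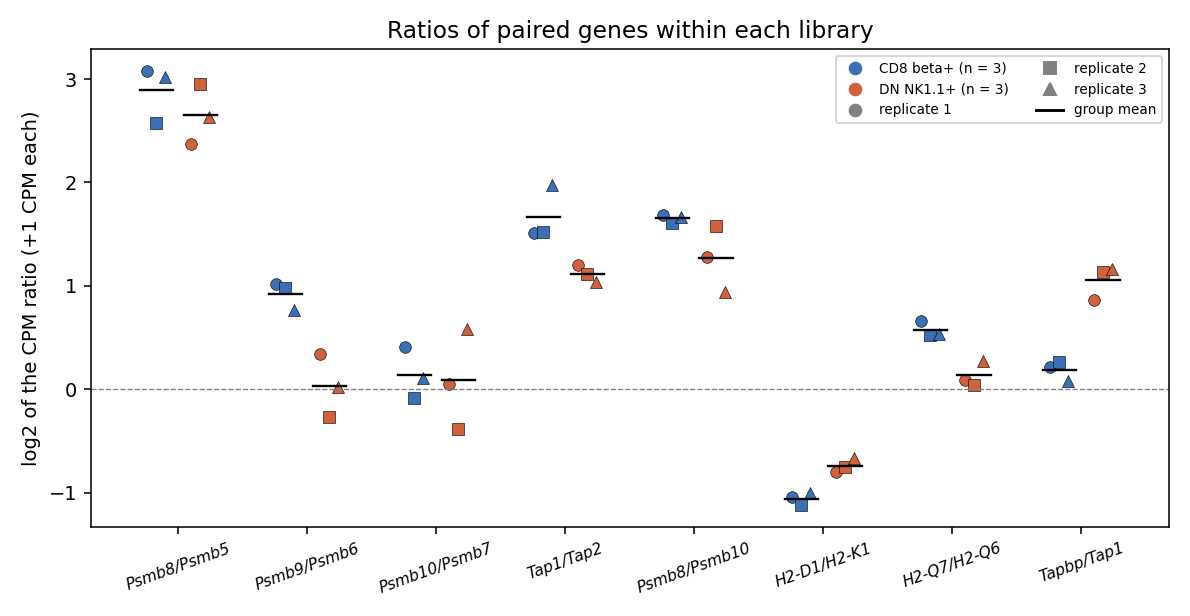
Log2 ratio of 8 pairs of genes in each library, after 1 CPM was added to each gene. Points are libraries, with a shape for each replicate number, and bars are group means (n = 3 per group). Among the induced over constitutive subunits the groups are apart for Psmb9 over Psmb6 and overlap for the other 2. The 5 ratios on the right were chosen after their values had been seen, and the groups are apart in each of them.

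Per kilobase of transcript, B2m was the most abundant of the 10 genes in both groups and Tap2 the least. In CD8 beta+ libraries the mean level per kilobase was 5349 CPM for B2m and 861 CPM for H2-K1. H2-D1 (319.8 CPM) and H2-Q7 (298 CPM) followed and overlapped. Then came Psmb8 (99.0 CPM), Tapbp (70.2 CPM), Tap1 (60.7 CPM), Psmb9 (36.6 CPM), Nlrc5 (33.5 CPM) and Tap2 (16.1 CPM) per kilobase, with overlap between Tapbp and Tap1 and between Psmb9 and Nlrc5. In DN NK1.1+ libraries the order per kilobase was the same except that Tapbp (81.8 CPM) and Psmb8 (76.1 CPM) changed places, and these overlapped. There H2-D1 (365 CPM) no longer overlapped H2-Q7 (222 CPM), and Tapbp no longer overlapped Tap1 (38.3 CPM).

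Library differences within a group ran through most of the 10 genes. DN NK1.1+ replicate 3 was the highest of its group for 9 of them, B2m being the exception, and CD8 beta+ replicate 2 was the lowest of its group for 7. DN NK1.1+ replicate 3 also held the most milk and luminal epithelial transcripts, a sum over 12 genes of 2195 CPM against 426 and 1147 CPM in the other two and 732 to 1050.0 CPM in CD8 beta+ libraries. Without that library all 5 genes were still called lower, with log2 fold changes of −0.73 for Tap1, −0.69 for Psmb9, −0.66 for Nlrc5, −0.54 for H2-Q7 and −0.46 for Psmb8. The 7 B cell genes summed to 190.5 to 349 CPM and 328 to 532 CPM, and the 9 macrophage genes to 87.2 to 153 CPM and 105 to 211 CPM. Of these 9, Csf1r was called higher (15.3 and 28.3 CPM, log2 fold change 0.88, adjusted p = 0.026), against 7.84% over all tested genes. The other 8 macrophage genes were not called, and 1 of the 9 had a negative change (median log2 fold change 0.24). The 7 dendritic cell genes summed to 104 to 134.5 CPM and 271 to 288 CPM, nearly all of it Itgax (113 and 269 CPM), which NK cells also express, and all 5 tested genes of that list had positive changes (median log2 fold change 1.83). Flt3 (0.485 and 1.71 CPM), Zbtb46 (0.687 and 2.57 CPM) and Cd209a (0.474 and 2.85 CPM) were low but higher in every DN NK1.1+ library, without being called, and Xcr1 was at 0 in every CD8 beta+ library and 0.578 CPM on average in DN NK1.1+ libraries. Both replicate 3 libraries stood apart for 7 basal epithelial genes, with sums of 133 CPM in the CD8 beta+ library and 179 CPM in the DN NK1.1+ library against 9.14 to 19.4 CPM in the other 4. The sums of 9 fibroblast, adipocyte and endothelial genes were also highest there, at 159.8 and 174 CPM against 48.3 to 101 CPM. Without CD8 beta+ replicate 3, 4 of the 10 genes were called lower, Psmb8 being lost. The part of these cells in the class I levels was not tested.

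By the measure used here, the genes whose pattern over the 6 libraries was most like the mean of the 10 genes were Twf2 and Tubb5 (Pearson r = 0.995 each), Dclre1b (0.991), Gapdh (0.99) and Cd52 (0.988). Of 5714 candidate genes, 165 had an r above 0.9. Among the 10 genes themselves, Psmb8 followed their mean most closely (r = 0.981), and Tapbp (−0.08), H2-D1 (0.05) and B2m (0.16) did not follow it. These correlations describe 6 libraries that also differ by group, and carry no test.

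Among 15 other class I heavy chain genes, 12 passed the filter, with a median log2 fold change of −0.13. Of these, 1 was called higher and 3 lower (7.84% and 5.99% over all tested genes). Mr1, which presents vitamin B metabolites to mucosal-associated invariant T cells, was higher at 7.67, 10.3 and 10.1 CPM against 21.1, 17.6 and 16.3 CPM (log2 fold change 0.96, SE 0.23, adjusted p = 0.00922). H2-Q10 was at 17.5 ± 5.16 and 7.03 ± 1.48 CPM (−1.32, SE 0.28, adjusted p = 0.0042). H2-T24 was at 14.3 ± 2.98 and 7.68 ± 1.18 CPM (−0.90, adjusted p = 0.0293). H2-M3, which presents formylated peptides, was at 24.8 ± 1.95 and 16.2 ± 1.24 CPM (−0.62, adjusted p = 0.035). H2-T23, the Qa-1 gene whose product is seen by CD94 and NKG2 receptors, was at 99.0 ± 2.80 and 89.9 ± 16.2 CPM and was not called (−0.14, adjusted p = 0.561).

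Some of these calls were lost when a library was left out. The call of Mr1 was lost without CD8 beta+ replicate 1 or DN NK1.1+ replicate 1 (0.84 and 0.85). That of H2-T24 was lost without CD8 beta+ replicate 1 or 2 or DN NK1.1+ replicate 2 or 3 (−0.90 to −0.75), and that of H2-M3 was lost in each of the 6 fits that left out a library (−0.68 to −0.56) and with scaling by total count alone (−0.57, adjusted p = 0.0572). H2-Q10 held in each of these fits. Heavy chain genes resemble one another, so their counts may depend on how shared reads were assigned.

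Chaperones of the endoplasmic reticulum that fold and load class I molecules were among the genes called higher. Of 14 loading and trimming genes, 4 were called higher in DN NK1.1+ libraries by edgeR (7.84% over all tested genes), with a median log2 fold change of 0.20. None was called lower (0 lower also at an unadjusted p under 0.05 and by DESeq2 and limma-voom). Pdia3, which encodes ERp57 of the loading complex, was at 482, 481 and 554 CPM in CD8 beta+ libraries and at 691, 741 and 641 CPM in DN NK1.1+ libraries, without overlap (log2 fold change 0.45, SE 0.10, adjusted p = 0.00573). Hspa5 (0.39, adjusted p = 0.0209) and Hsp90b1 (0.37, adjusted p = 0.0222) encode general chaperones of the compartment. Calr, which encodes the calreticulin of the loading complex, was at 355 ± 17.6 and 442 ± 44.7 CPM (0.32, SE 0.099, adjusted p = 0.0461). The count of 4 was 0 without CD8 beta+ replicate 1 or 2, 1 without DN NK1.1+ replicate 1 or 2, and 7 without DN NK1.1+ replicate 3. Calr was also not called with RLE scaling (adjusted p = 0.0537) or upper quartile scaling (adjusted p = 0.0686).

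**Figure D4:**
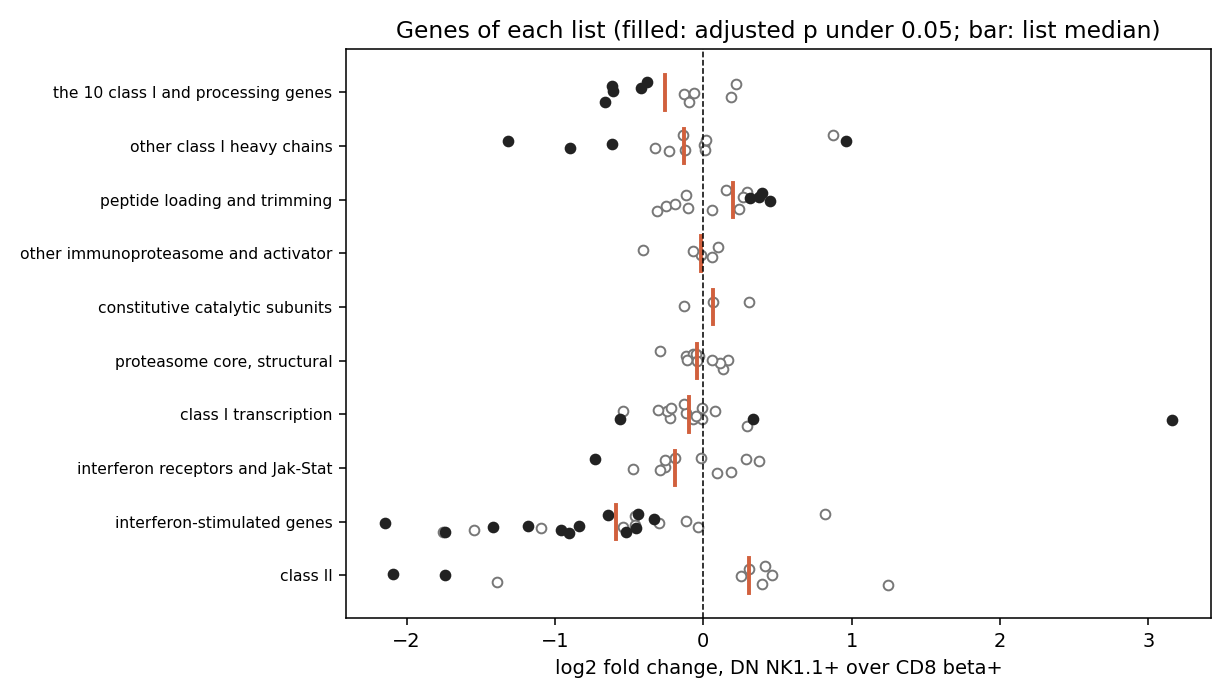
Log2 fold changes, DN NK1.1+ over CD8 beta+, of the tested genes in each list of the class I pathway and its regulators. Points are genes, filled where called at an adjusted p under 0.05, and bars are list medians. The interferon-stimulated genes have the lowest median (−0.59), against −0.26 for the 10 class I pathway genes and 0.20 for the loading and trimming genes.

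Of 16 transcription factors known to act on class I promoters, 2 were called higher and 1 lower (7.84% and 5.99% over all tested genes). Irf8 was higher (16.3 ± 2.43 and 145.5 ± 8.69 CPM, log2 fold change 3.16, adjusted p = 4.21e-10), as was Nfkb1 (179 ± 6.31 and 226 ± 5.36 CPM, 0.33, adjusted p = 0.0189). The call of Nfkb1 was lost in each fit that left out a CD8 beta+ library, and without DN NK1.1+ replicate 1 or 2 (0.30 to 0.35). Irf1, an interferon-induced activator, was at 141 ± 13.2 and 148.5 ± 7.40 CPM (0.08, adjusted p = 0.705), and Rfx5, which with Nlrc5 forms the complex on the X box, at 21.4 ± 1.61 and 20.4 ± 1.56 CPM (−0.07, adjusted p = 0.861).

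Interferon-stimulated genes, of which class I pathway genes are themselves examples, were also measured. Of 22 such genes outside the 10, 12 were called lower by edgeR (5.99% over all tested genes) and none higher, with a median of −0.59. The counts were 17 and 0 at an unadjusted p under 0.05, 13 and 0 by DESeq2, and 10 and 0 by limma-voom. Ifit3 was at 16.1, 15.9 and 16.7 CPM in CD8 beta+ libraries and 4.66, 3.10 and 3.26 CPM in DN NK1.1+ libraries, without overlap (log2 fold change −2.14, SE 0.27, adjusted p = 5.33e-05). Ifit1 (−1.74, adjusted p = 0.00164) and Rtp4 (−1.18, adjusted p = 0.00173) were lower too. Mx1 was at 9.88, 4.77 and 4.94 CPM and at 2.07, 2.93 and 2.28 CPM (−1.42, adjusted p = 0.0454). That call was lost in 5 of the 6 fits that leave out a library, all but the fit without CD8 beta+ replicate 3, and the log2 fold change was −1.01 when CD8 beta+ replicate 1 was left out. It was also lost with scaling by total count alone (adjusted p = 0.0537), with limma-voom (adjusted p = 0.0873) and with the replicate number as a block (adjusted p = 0.0598). Among 11 interferon receptor and Jak-Stat genes, Irf9 alone was called, at 54.1 ± 5.49 and 32.5 ± 6.71 CPM (−0.73, SE 0.17, adjusted p = 0.00711).

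The class II pathway, measured for comparison, had 2 of 9 genes called lower by edgeR (5.99% over all tested genes), with a median log2 fold change of 0.31. None was called higher by edgeR, DESeq2 or limma-voom, and 2 were higher at an unadjusted p under 0.05. Those called lower were H2-Oa (11.2, 10.7 and 6.90 CPM against 2.67, 3.35 and 2.58 CPM, log2 fold change −1.74, adjusted p = 0.00329) and H2-Ob (16.9, 10.3 and 2.27 CPM against 2.76, 1.51 and 2.58 CPM, −2.09, adjusted p = 0.0458). Both encode the DO modulator of class II loading, which is best known from B cells. The groups overlapped for H2-Ob, whose call was lost with limma-voom (adjusted p = 0.173) and in 5 of the 6 fits that left out a library, all but the fit without CD8 beta+ replicate 3. When CD8 beta+ replicate 1 was left out it stood at −1.47. Of the 7 B cell genes, Cd79b was called lower (10.9 and 4.35 CPM) and Ighm higher (186 and 271 CPM), and the part of B cells in this result was not tested.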

How the data were processed

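Bulk RNA sequencing of 6 libraries was analysed. The authors deposited values per gene that were taken for expected counts, since they hold decimals and their totals differ between libraries. No label states the unit. Per the submitters' processing notes, the build was mm10 and Cell Ranger 7.1.0, a single-cell tool, was used. For the bulk RNA, the aligner, counter and use of strand were not given in the sources used here. Symbol and ID columns of the table carry each other's headings. All 55450 IDs matched GENCODE M21, which gave coordinates and transcript lengths.

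Expected counts were rounded to whole numbers. CPM used library sizes scaled by TMM factors (0.9653 to 1.031), so that 1 count was worth 0.0722 to 0.13 CPM. Groups of 3 libraries were compared by edgeR 4.0.16 under R 4.3.3 with its two-sided quasi-likelihood test (robust, group as the only term), after filterByExpr (count of 10, total of 15), with Benjamini-Hochberg adjustment over all 13171 genes. Intervals of log2 fold changes are 95% intervals. The fit was tested on simulated data. Alternatives were other scalings and filters, DESeq2 1.42.0, limma-voom (limma 3.58.1), the replicate number as a block, and leaving out each library. Subunit ratios were compared with an exact permutation test over libraries, with a pseudocount of 1 CPM. No libraries of a group were copies of each other (chi-square per degree of freedom 9.07 to 23.5).

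The genes and lists were chosen with earlier results of these data known. Named genes were the 10 members, from each other list up to 4 called genes of at least 5 CPM by size of change, 10 further genes whatever their result, and the 5 genes of at least 20 CPM most like the members' mean. Other genes named were chosen after their values were seen. For 1 named gene, which list counts include, the result is not reported here. Whether libraries came from separate animals is not stated. The p-values therefore reflect only how these samples vary, which may be technical.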

Additional observations from a re-analysis of the deposited data

How the results depend on the processing

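Tap1 and Nlrc5 kept their calls under all 14 alternatives, with log2 fold changes of −0.75 to −0.56 and −0.66 to −0.56. Over all 10 genes, 129 of 141 values under alternatives kept their direction and their side of the threshold. When each library was left out in turn, H2-Q7 ranged from −0.54 to −0.37, Psmb8 from −0.48 to −0.33 and Psmb9 from −0.69 to −0.50, and each lost its call in some of these fits. Psmb8 also lost it under scaling by library size alone (−0.33), and H2-Q7 when summed with H2-Q6 (−0.23), an alternative chosen after seeing the data. Over these fits that left out a library, the count of the 10 genes called lower ranged from 2 to 5, that of all genes called higher from 681 to 1093 and that of all genes called lower from 499 to 883, with both lowest values without CD8 beta+ replicate 1. In those fits the counts called higher were 0 to 1 for other heavy chains, 0 to 7 for loading and trimming, 1 to 2 for transcription factors, 0 to 1 for interferon receptors and Jak-Stat and 0 to 3 for class II. The counts called lower were 1 to 2 for other heavy chains, 0 to 1 for other immunoproteasome genes, 1 to 2 for interferon receptors and Jak-Stat and 1 to 2 for class II. Interferon receptor and Jak-Stat genes called lower were 2 under upper quartile scaling, without the filter on low counts and with the replicate block. Class II genes called lower were 1 with limma-voom, and without the filter 2 were called higher and 1 other immunoproteasome gene was called lower. The difference in Psmb10 over Psmb7 ranged from −0.31 to 0.18 when a library was left out. The single genes Psmb5 (−0.23 to 0.034), Psmb7 (−0.039 to 0.11) and Psmb10 (−0.22 to 0.23) changed sign in such fits. Of the 25 other named genes, 12 kept their direction and call in every fit, 10 lost a call and these 3 changed sign. Deviations of same-numbered libraries had r = −0.05, 0.189 and 0.256 for replicates 1, 2 and 3. Nothing in the labels says that the numbers pair animals, so they were used as a block only in an alternative fit. Both replicate 3 libraries nevertheless shared high basal epithelial and stromal sums. With the replicate block 5 of the 10 genes were called lower, and over all genes 1137 were called higher and 945 lower. The causes of these shifts were not tested. With 3 libraries a group, changes as small as those of H2-D1 and Tapbp were not distinguishable from 0 at this depth and spread.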
